A study of Mus musculus with 6 samples.

Results

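The SLC25 proteins are the carriers that move metabolites across the mitochondrial inner membrane, and their genes were described here in alveolar macrophages with and without Hdac3. Members were the rows of the deposited expression table whose symbol begins with Slc25a and a digit, leaving out Slc25a20, which gave 44 of the 18392 genes listed. Of these, 33 had a mean of at least 1 FPKM (fragments divided by transcript length and library size) over the 6 libraries and were tested together with all 10847 genes that passed this filter. Macrophages were sorted by flow cytometry from lungs of C57BL/6 mice aged 6 weeks. The 3 control libraries came from Hdac3fl/fl mice, in which the Hdac3 gene is flanked by loxP sites. The 3 knockout libraries came from Cd11c-CreHdac3fl/fl mice, in which Cre recombinase is driven by the promoter of Cd11c, a surface integrin of alveolar macrophages and dendritic cells. Both groups carried the floxed alleles and only the knockouts carried Cre, so the presence of Cre and the loss of Hdac3 cannot be told apart. Separate mice are not stated for the libraries, so p-values reflect only how far these 6 libraries scatter.

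Many carriers of this family exchange a substrate of the mitochondrial matrix for one of the cytosol. Most of known function have a narrow substrate range: adenine nucleotides, phosphate, cofactors, organic acids, amino acids or iron. They set which metabolites reach the enzymes inside the mitochondrion and which leave it for synthesis in the cytosol. Alveolar macrophages clear surfactant lipid from the air spaces and are known for a metabolism that relies on mitochondrial oxidation. A few members are named for their sequence alone or lie in another membrane, such as Slc25a17 of the peroxisome and Slc25a46 of the mitochondrial outer membrane.

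Hdac3 itself, a histone deacetylase, read 17.71, 19.89 and 16.94 FPKM in the control libraries and 4.36, 5.05 and 3.97 FPKM in the knockouts, with no overlap. All 12 alveolar macrophage markers examined reached 1 FPKM, and their sum was 15302 to 17376 FPKM in controls and 23848 to 30550 FPKM in knockouts. Chil3 made up most of that sum, with means of 12877 and 21886 FPKM. Like Chil3, Itgax (436 to 852 FPKM), Car4 (407 to 1749 FPKM), Plet1 (823 to 1639 FPKM) and Mrc1 (416 to 712 FPKM) were higher in knockouts under both scalings. Lower under both scalings were Krt79 (182 to 24.9 FPKM), Fabp1 (278 to 52.9 FPKM), Pparg (129 to 74.0 FPKM), Marco (228 to 138 FPKM) and Mertk (169 to 111 FPKM). Siglecf and Fabp4 were not called as deposited. Markers of other cells had smaller sums: those over 8 lymphocyte markers were 20.6 to 33.4 against 6.65 to 6.91 FPKM, over 8 alveolar epithelial markers 58.2 to 122 against 22.3 to 41.3 FPKM, and over 8 neutrophil markers 68.4 to 88.0 against 38.7 to 58.2 FPKM. Among the neutrophil markers Csf3r went from 34.9 to 4.77 FPKM, while S100a8 (12.6 and 12.6 FPKM) and S100a9 (9.77 and 10.99 FPKM) were not called. The sum over 9 markers of interstitial macrophages and monocytes was 8.51 to 11.2 against 8.38 to 11.1 FPKM, with C1qa, C1qb and C1qc 4.01 to 5.19 times as high in knockouts and Ccr2 (2.36 to 0.847 FPKM), Ly6c2 (1.45 to 0.433 FPKM) and Lyve1 (1.73 to 0.717 FPKM) below the controls. These single markers were chosen after their values were seen. No marker was at 0 in all 6 libraries, and the part of other cells in the carrier values was not tested. The 10 most abundant genes took 13.2% to 13.9% of all FPKM in controls and 25.5% to 26.8% in knockouts. FPKM are relative to library size, so such a shift can lower the values of other genes, but its part in the values here was not tested. The FPKM of a library summed to 462253 to 468193 in controls and 490080 to 504966 in knockouts. Each count is also given for libraries brought to a common level by TMM (trimmed mean of M values) factors. In such bulk libraries, fewer cells of a type and less RNA per cell cannot be told apart.

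Most expressed carriers read lower in the knockouts as deposited, while Slc25a44, the carrier of branched-chain amino acids, rose. With limma and a Benjamini-Hochberg adjusted p under 0.05, 2 of the 33 carriers rose, 23 fell and 8 were not called. Over all genes tested 69.8% were called, 11% higher and 58.8% lower, so a fall was the common direction of the whole table. The median log2 change was -0.36 for the carriers and -0.31 for all genes tested. After TMM scaling 9 carriers were higher, 8 lower and 16 not called, with a median of -0.05. Over all genes 56% were then called, 30% higher and 26% lower, with a median of 0.02. The share of carriers called lay near that of all genes under either scaling.

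Under both scalings 2 carriers were higher, Slc25a44 and Slc25a39, and 8 were lower, namely Slc25a24, Slc25a13, Slc25a36, Slc25a1, Slc25a30, Slc25a28, Slc25a16 and Slc25a38. These 10 kept their call and direction in all 13 alternative fits, which changed the scaling, pseudocount, filter or variance model, added the replicate number, or left out 1 library. Another 15 carriers were lower as deposited and not called after TMM scaling, 7 were not called and then higher, and Slc25a32 was not called in either. Of the 10847 genes tested as deposited, 1194 were higher and 2808 lower under both scalings. The 1194 were all genes called higher as deposited, and the 2808 were all genes called lower after TMM scaling. A call under both scalings therefore adds no second support to a gene higher as deposited or lower after TMM scaling. A further 3372 were lower and then not called, 1884 not called and then higher, and 1386 not called in either. The verbs rose and fell below refer to the calls on the deposited values, with the TMM value beside them. Log2 changes are of FPKM + 1 and understate the changes of low genes.

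**Figure D1:**
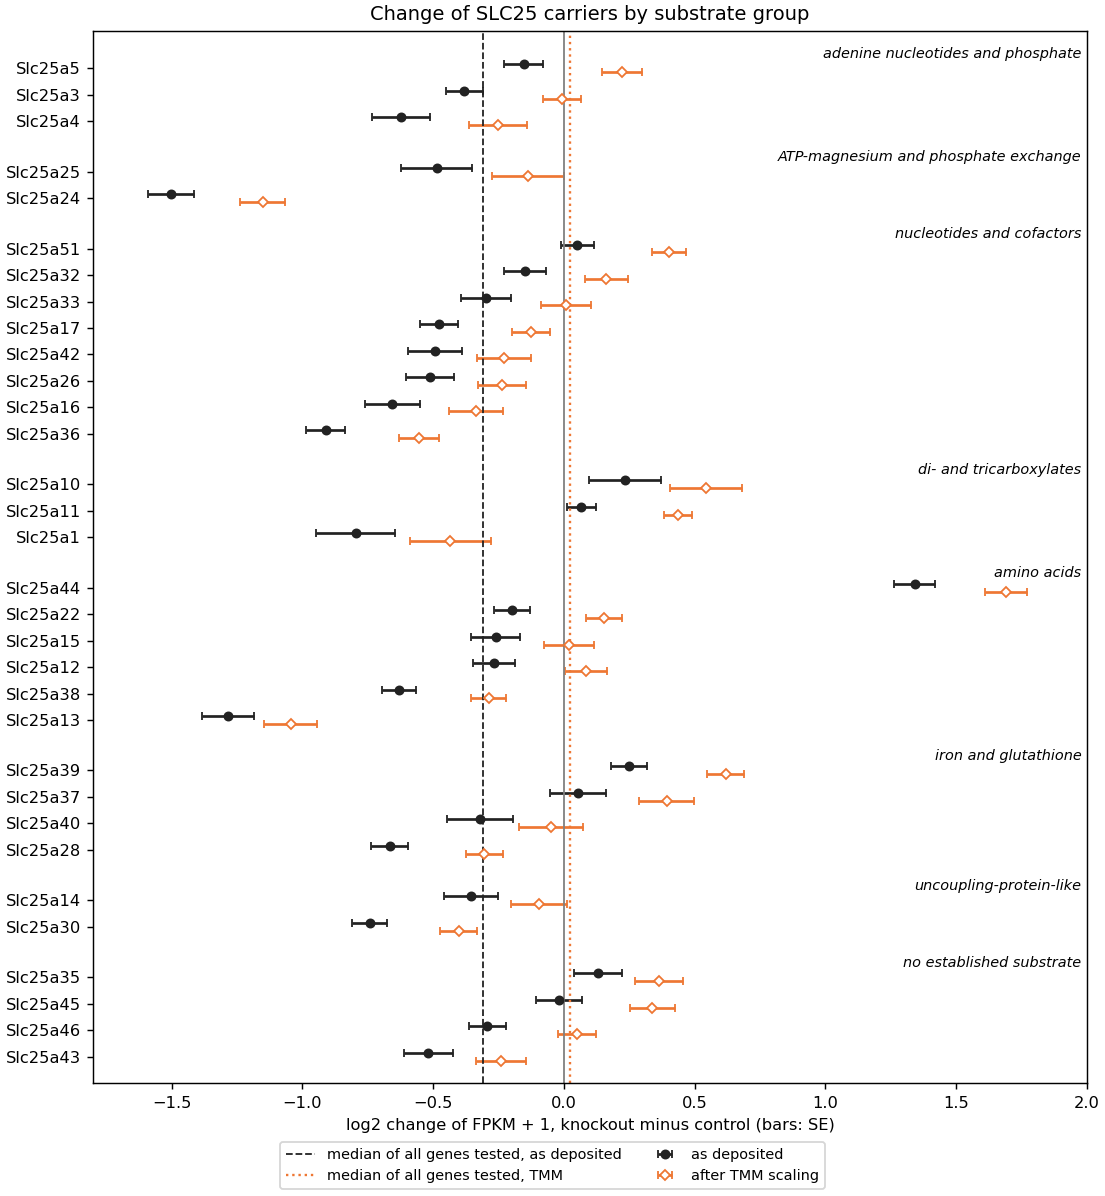
Log2 change of FPKM + 1, knockout minus control, for 32 of the 33 carriers tested, grouped by substrate. Filled circles are the deposited values and open diamonds the TMM-scaled values, bars are the limma SE, and vertical lines mark the median of all genes tested. Slc25a44 stands at 1.34 to the right and Slc25a24 and Slc25a13 at -1.50 and -1.28 to the left, while most others lie around the all-gene median of -0.31.

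Promoter sequence is shown for the carriers called with a log2 change of at least 1 in size that have an entry in the RefSeq promoter table (GRCm38.p6), Slc25a24 and Slc25a13. Of the 44 carriers, 33 had an entry. The sequences run 5′ to 3′ on the gene's strand and come from the 250 bases before the start. For Slc25a24 these are chr3:109122899-109123148 (plus strand). For Slc25a13 the first 149 bases are given, chr6:6217275-6217423 (minus strand), of which the last 30 lie inside the gene's annotated span, since another transcript begins there. Capitals mark a searched motif.
Slc25a24: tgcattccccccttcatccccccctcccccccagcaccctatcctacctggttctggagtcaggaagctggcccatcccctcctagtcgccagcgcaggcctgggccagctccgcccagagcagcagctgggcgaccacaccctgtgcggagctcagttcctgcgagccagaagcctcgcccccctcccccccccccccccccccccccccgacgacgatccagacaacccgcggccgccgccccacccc
Slc25a13: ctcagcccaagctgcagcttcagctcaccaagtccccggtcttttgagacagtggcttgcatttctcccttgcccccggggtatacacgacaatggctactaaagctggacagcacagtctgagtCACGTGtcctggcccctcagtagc
The Slc25a24 sequence held 72.8% G and C, with a long run of C, and none of the 6 motifs. The Slc25a13 stretch held 57.0% G and C and an E-box, CACGTG, 125 bases before the start. This E-box lies within the last 30 bases shown, and so inside the gene's annotated span. The motifs were searched on both strands in the 250 bases before the start, in 32 windows of 25 tested carriers and in 32851 windows of the whole table. CACGTG stood in 7 of the 32 carrier windows and in 6.02% of all windows. The carriers were Slc25a1, Slc25a13, Slc25a14, Slc25a15, Slc25a33 and Slc25a36. The cyclic-AMP response element TGACGTCA stood in 2 carrier windows, of Slc25a25 and Slc25a36, and in 1.55% of all windows. The antioxidant response element core TGACNNNGC stood in 7 carrier windows and in 10.2% of all windows. Its carriers were Slc25a3, Slc25a5, Slc25a14, Slc25a25, Slc25a33 and Slc25a38. A carrier can have more than 1 window, and differences from all windows were not tested. The letters GCGCATGC, TCAAGGTCA and TGATGNAA, after NRF1, the estrogen-related receptors and ATF4, were in no carrier window and in 2.26%, 0.387% and 3.45% of all windows. CACGTG and TGACGTCA read the same on both strands.

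Among the members, the adenine nucleotide and phosphate carriers, which supply ATP synthase and export its product, were the most abundant. The carrier Ucp2, outside the members by its symbol and described below, read higher than any of them. Slc25a5, an ADP/ATP carrier, read 426.39, 455.77 and 386.09 FPKM in controls and 360.61, 386.19 and 390.69 FPKM in knockouts, so the groups overlapped (423 ± 35.0 against 379 ± 16.2 FPKM, SD, n = 3 each). Its log2 change of -0.15 ± 0.07 (SE) was not called by limma (adjusted p = 0.093), but without control library 3 it was called lower (adjusted p = 0.024), and after TMM scaling it was called higher, at 0.22 (adjusted p = 0.036). Slc25a3, the phosphate carrier, read 222.55, 224.70 and 203.22 FPKM in controls and 153.77, 172.58 and 172.49 FPKM in knockouts. Every knockout library lay below every control, and the gene fell by 0.38 on the log2 scale (limma adjusted p = 0.0011), against -0.01 and no call after TMM scaling. Slc25a4, the other ADP/ATP carrier, ranged from 66.7 to 87.0 FPKM in controls and from 46.5 to 56.4 FPKM in knockouts, a log2 change of -0.62 that was not called after TMM scaling (-0.25). Slc25a31, an ADP/ATP carrier known from testis, was listed at 0 in 5 libraries and at 0.03 FPKM in control library 2.

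Slc25a5, Slc25a3 and Slc25a4 made up 61.9% to 64.2% of the summed FPKM of the members, called the family sum here, in every library. The family sum was 1148, 1198 and 1059 FPKM in controls and 896, 969.8 and 952 FPKM in knockouts, and the groups did not overlap. Its mean went from 1135 ± 70.2 to 939 ± 38.5 FPKM, a ratio of 0.828, and the exact two-sided permutation test gave p = 0.1, the smallest that 3 against 3 libraries allow. Without Slc25a5 the sum went from 712 to 560 FPKM, with the same p. After TMM scaling the order turned, with 996 ± 68.2 in controls and 1070 ± 41.4 in knockouts (exact permutation p = 0.2). No direction of the family as a whole therefore held under both scalings.

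**Figure D2:**
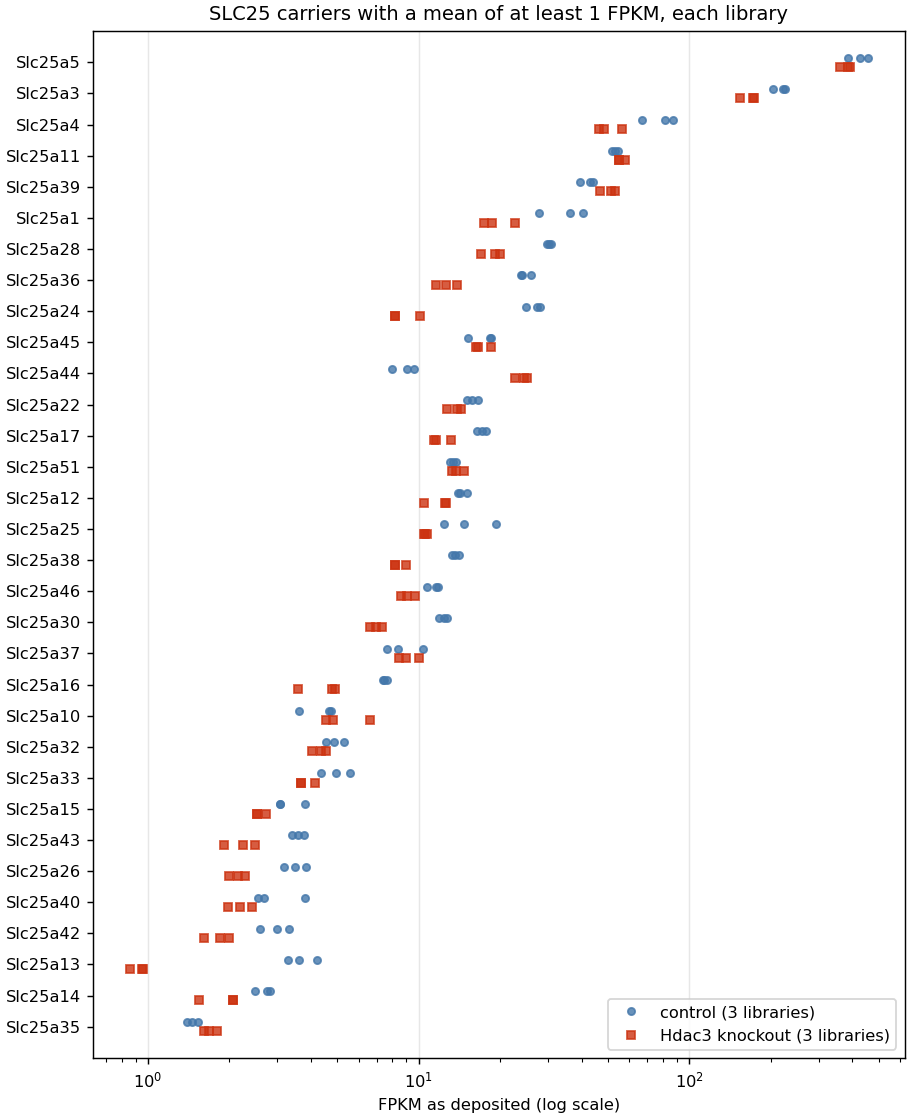
FPKM as deposited (log axis) in each library for 32 of the 33 carriers with a mean of at least 1 FPKM, ordered by that mean, with circles for the 3 controls and squares for the 3 knockouts. Levels run from 361 to 456 FPKM for Slc25a5 to under 2 FPKM for Slc25a35, and Slc25a44, Slc25a24 and Slc25a13 show the widest gaps between groups.

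Among the carriers that exchange ATP-magnesium for phosphate and so set the size of the matrix adenine nucleotide pool, Slc25a24 had the largest fall in log2(FPKM + 1) of the carriers tested. With a pseudocount of 0.1 FPKM the order turned, at -1.60 for Slc25a24 and -1.89 for Slc25a13, and by the ratio of means Slc25a13 fell 4.01-fold and Slc25a24 3.04-fold. The gene lies on chromosome 3 (109123149 to 109168409) and read 24.96, 27.26 and 28.04 FPKM in controls and 8.17, 10.08 and 8.19 FPKM in knockouts. The lowest control was more than double any knockout. Its log2 change was -1.50 ± 0.09 (limma adjusted p = 1.6e-06) and -1.15 after TMM scaling, and 3.03% of tested genes had a lower log2 change. Slc25a25, a calcium-regulated carrier of the same exchange, read 19.24, 14.74 and 12.38 FPKM in controls and 10.43, 10.75 and 10.53 FPKM in knockouts. Controls of Slc25a25 were spread widely and knockouts hardly at all, and its fall of 0.49 on the log2 scale was not called after TMM scaling (-0.14). Its annotated span overlaps that of Naif1, and reads of the overlap could have been given to either gene. Slc25a23 (0.41 to 0.49 against 0.09 to 0.25 FPKM) and Slc25a41 (up to 0.09 FPKM) were under the filter.

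Carriers of nucleotides and cofactors showed 7 falls among 9 tested members, of which Slc25a36 and Slc25a16 were also called after TMM scaling. As deposited 77.8% of this group and 58.8% of all genes tested were lower, and after TMM scaling 22.2% and 26%. Slc25a36 carries pyrimidine nucleotides into the matrix, where they serve mitochondrial DNA and RNA synthesis, and read 23.91, 24.03 and 25.99 FPKM in controls and 13.80, 11.60 and 12.58 FPKM in knockouts. The groups were far apart, with a log2 change of -0.91 ± 0.07 (limma adjusted p = 9.5e-06) and -0.55 after TMM scaling. Slc25a33, a pyrimidine nucleotide carrier of lower level, went from 4.97 to 3.84 FPKM. Its fall of 0.30 on the log2 scale was lost after TMM scaling (0.01) and without control library 1 or knockout library 2 or 3 (adjusted p = 0.073, 0.059 and 0.058).

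Slc25a16, linked to coenzyme A in the matrix, read 7.45, 7.37 and 7.67 FPKM in controls and 4.93, 4.79 and 3.57 FPKM in knockouts. Knockout library 3 was the lowest, and the controls lay within 0.3 FPKM of each other. The log2 change was -0.66 ± 0.10 (limma adjusted p = 0.00044), and -0.34 after TMM scaling. Slc25a42, the carrier of coenzyme A, went from 2.97 to 1.82 FPKM, a log2 change of -0.49 that TMM scaling left uncalled (-0.23). Slc25a17, which carries coenzyme A and related cofactors into peroxisomes, read 17.14, 17.69 and 16.48 FPKM in controls and 11.55, 13.15 and 11.35 FPKM in knockouts. It fell by 0.48 on the log2 scale without overlap, and was not called after TMM scaling (-0.13).

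Slc25a51, the carrier of NAD+, did not follow the others: it was 13.4 ± 0.335 FPKM in controls and 13.9 ± 0.738 FPKM in knockouts, a log2 change of 0.05 that was not called, and higher by 0.40 after TMM scaling (adjusted p = 0.0007). Slc25a26, which imports S-adenosylmethionine, went from 3.50 to 2.15 FPKM. It fell by 0.51 on the log2 scale and was not called after TMM scaling (-0.24). The span of Slc25a26 overlaps that of Lrig1. Slc25a32, linked to folate and FAD, went from 4.89 to 4.31 FPKM with overlapping groups and was not called under either scaling.

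Of the organic acid carriers, the citrate carrier Slc25a1 fell, while Slc25a11 and Slc25a10 were not called as deposited and higher after TMM scaling. Slc25a1 exports citrate, the source of cytosolic acetyl-CoA for lipid synthesis. It read 36.28, 40.44 and 27.91 FPKM in controls and 17.38, 22.60 and 18.65 FPKM in knockouts. Control library 3 was the lowest control and still above every knockout, with a log2 change of -0.80 ± 0.15 (limma adjusted p = 0.0027). After TMM scaling the groups overlapped, and the change was -0.43, at a limma adjusted p of 0.048 just under the threshold.

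Slc25a11, the oxoglutarate-malate carrier of the malate-aspartate shuttle, read 51.98, 54.58 and 53.12 FPKM in controls and 54.82, 57.93 and 54.74 FPKM in knockouts. The lowest knockout exceeded the highest control by less than 1 FPKM, and the log2 change of 0.07 was not called (adjusted p = 0.29). After TMM scaling it was 0.44 and called higher, and the gene's span overlaps that of Rnf167. Slc25a10, the dicarboxylate carrier, went from 4.35 to 5.32 FPKM with overlapping groups, a log2 change of 0.23 that was not called, and 0.54 and called after TMM scaling. Slc25a21, the oxodicarboxylate carrier, read 0.05 to 0.06 FPKM in controls and at most 0.01 FPKM in knockouts.

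The amino acid carriers Slc25a44 and Slc25a13 moved in opposite directions. Slc25a44, shown in mouse brown fat to carry branched-chain amino acids, lies on chromosome 3 (88410494 to 88425141). It read 9.04, 9.65 and 8.0 FPKM in controls and 24.46, 25.07 and 22.61 FPKM in knockouts. The lowest knockout was more than double the highest control, and the log2 change was 1.34 ± 0.08 (limma adjusted p = 1.6e-06), or 1.69 after TMM scaling. Of the tested genes, 98.7% had a lower log2 change.

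Slc25a13 encodes citrin, an aspartate-glutamate carrier of the malate-aspartate shuttle known from liver, and lies on chromosome 6 (6041218 to 6217304). Its libraries read 3.62, 4.20 and 3.28 FPKM in controls and 0.95, 0.86 and 0.96 FPKM in knockouts. The 3 knockouts were nearly the same, and the control mean was 4.01 times the knockout mean. The log2 change was -1.28 ± 0.10 (limma adjusted p = 7.7e-06), -1.05 after TMM scaling and -1.89 with a pseudocount of 0.1 FPKM. Slc25a12, which encodes Aralar, the other aspartate-glutamate carrier, went from 14.4 to 11.9 FPKM. Its fall of 0.27 on the log2 scale was not called after TMM scaling (0.08) or without control library 2 (adjusted p = 0.059).

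Slc25a38 carries glycine, which mitochondria use to start heme synthesis, and its role there is known from erythroid cells. It read 13.57, 14.12 and 13.24 FPKM in controls and 8.20, 8.20 and 8.96 FPKM in knockouts. The groups did not overlap, with a log2 change of -0.63 ± 0.07 (limma adjusted p = 3.6e-05) and -0.29 after TMM scaling. Slc25a22, a glutamate carrier, read 16.53, 15.69 and 15.15 FPKM in controls and 12.69, 13.88 and 14.33 FPKM in knockouts. The gap between its groups was under 1 FPKM, and its fall of 0.20 on the log2 scale was lost after TMM scaling (0.15) and without control library 1 or 2 or knockout library 1 (adjusted p = 0.096, 0.064 and 0.098). Slc25a15, the ornithine carrier of the urea cycle, went from 3.32 to 2.60 FPKM, and its call (log2 change -0.26, adjusted p = 0.034) was lost after TMM scaling (0.02) and without control library 2 or any single knockout library (adjusted p = 0.055 to 0.14). Slc25a18, a second glutamate carrier, Slc25a2, an ornithine carrier, and Slc25a29, a carrier of basic amino acids, had means from 0.0967 to 0.533 FPKM and were not tested.

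The iron and glutathione carriers moved apart. Slc25a39, which brings glutathione into mitochondria, read 43.07, 44.17 and 39.43 FPKM in controls and 46.83, 53.29 and 51.14 FPKM in knockouts. Every knockout was above every control, with a log2 change of 0.25 ± 0.07 (limma adjusted p = 0.01) and 0.62 after TMM scaling. Its relative Slc25a40 went from 3.02 to 2.19 FPKM, called as deposited at an adjusted p of 0.046. That call was lost after TMM scaling (-0.05) and without any single library except control library 1 (adjusted p = 0.05 to 0.14).

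Slc25a28, mitoferrin of non-erythroid cells, read 30.86, 29.69 and 30.21 FPKM in controls and 17.00, 19.17 and 20.02 FPKM in knockouts. The fall was far larger than the spread within groups, with a log2 change of -0.67 ± 0.07 (limma adjusted p = 3.7e-05) and -0.30 after TMM scaling. Slc25a37, the mitoferrin of erythroid cells, went from 8.82 ± 1.41 to 9.16 ± 0.780 FPKM with overlap, a change of 0.05 that was not called, and 0.39 and called higher after TMM scaling. The summed FPKM of 8 erythroid markers was 37.6 to 282 in controls and 20.1 to 105 in knockouts, of which 4, all hemoglobin genes, reached 1 FPKM and none was at 0 in every library. Their part in the values of Slc25a37, Slc25a28 and Slc25a38 was not tested.

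Slc25a30, named for its likeness to the uncoupling proteins, read 12.44, 12.70 and 11.89 FPKM in controls and 7.35, 6.60 and 6.98 FPKM in knockouts. The groups were well apart, with a log2 change of -0.74 ± 0.07 (limma adjusted p = 1.7e-05) and -0.40 after TMM scaling. Slc25a14, of the same kind and known from brain, read 2.76, 2.82 and 2.48 FPKM in controls and 2.06, 1.55 and 2.06 FPKM in knockouts. Its groups did not overlap either, but the fall of 0.36 on the log2 scale was not called after TMM scaling (-0.09) or without knockout library 2 (adjusted p = 0.05, not under the threshold). Slc25a27, also of this kind, reached 0.12 FPKM at most.

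Of the members listed here with no established substrate, Slc25a45 read 15.26, 18.27 and 18.50 FPKM in controls and 16.24, 16.50 and 18.47 FPKM in knockouts. The groups overlapped, at a log2 change of -0.02 that was not called and 0.34 and called higher after TMM scaling. Slc25a46, a protein of the mitochondrial outer membrane that acts in organelle shape, read 11.63, 11.84 and 10.72 FPKM in controls and 9.02, 9.73 and 8.62 FPKM in knockouts. It fell by 0.29 on the log2 scale and was not called after TMM scaling (0.05). Slc25a43 went from 3.60 to 2.22 FPKM, a fall of 0.52 that was not called after TMM scaling (-0.24). Slc25a35 went from 1.46 to 1.70 FPKM, at 0.13 not called, and was called higher after TMM scaling (0.36), with a span that overlaps that of Rangrf.

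Slc25a47, a carrier known from liver, lay just under the filter at 1.12 to 1.31 FPKM in controls and 0.55 to 0.78 FPKM in knockouts. Slc25a53 (0.17 to 0.30 against 0.21 to 0.29 FPKM) and Slc25a34 (0.06 to 0.16 against 0.12 to 0.19 FPKM) were lower still, and both overlapped between groups. Each control library had 34 carriers at or above 1 FPKM and each knockout library had 32. Over all genes listed the number at or above 1 FPKM was also lower in knockouts, at 10938 to 11077 in controls and 10393 to 10434 in knockouts.

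Ratios within a library do not depend on how libraries are scaled, apart from the pseudocount, and were compared for pairs of carriers with a shared or related substrate. Of 10 pairs listed, 8 had both genes tested, and in 6 of them the log2 ratios of FPKM + 1 did not overlap between groups. Each of these 6 gave an exact two-sided permutation p of 0.1, the smallest possible, and 0.133 after Benjamini-Hochberg adjustment over the 8 pairs, so no pair could pass the threshold. How often pairs of other genes separate in this way was not counted. As deposited, 69.8% of all genes tested were called, so the 6 pairs are not shown to be unusual.

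The ratio of Slc25a12 to Slc25a13 rose most. Its linear value was 3.93 ± 0.364 in controls and 12.9 ± 1.85 in knockouts (n = 3 each), with Aralar the more abundant transcript in every library. Its log2 ratio differed by 1.02, or by 1.60 with a pseudocount of 0.1 FPKM. Slc25a24 to Slc25a25 went the other way, from a linear ratio of 1.80 ± 0.485 to 0.833 ± 0.0908, a log2 difference of -1.02: Slc25a24 was the more abundant in all 3 controls and Slc25a25 in all 3 knockouts.

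The ratio of Slc25a37 to Slc25a28 differed by 0.72 on the log2 scale, with erythroid mitoferrin at 0.292 of the other in controls and 0.490 in knockouts. Slc25a33 to Slc25a36 differed by 0.61, Slc25a39 to Slc25a40 by 0.57 and Slc25a4 to Slc25a5 by -0.47. For the ADP/ATP carriers this was a linear ratio of 0.185 in controls and 0.133 in knockouts. Slc25a10 to Slc25a11 and Slc25a42 to Slc25a16 overlapped between groups, with differences of 0.17 and 0.16 (exact permutation p = 0.5 each, adjusted 0.5). Slc25a22 to Slc25a18 and Slc25a24 to Slc25a23 were not tested, since a member of each lay under the filter.

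**Figure D3:**
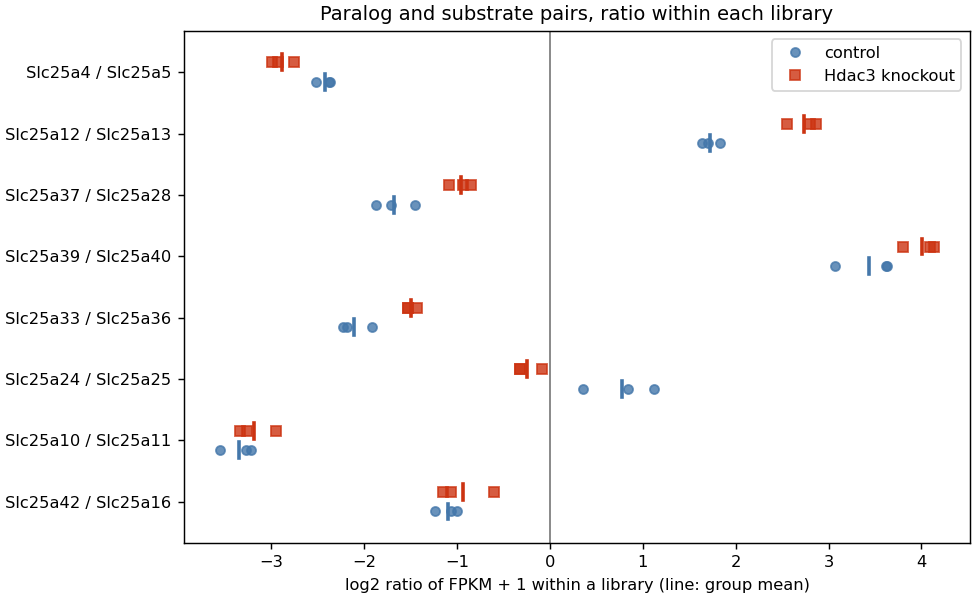
Log2 ratio of FPKM + 1 within each library for 8 pairs of carriers, with circles for controls, squares for knockouts and a line for each group mean. In 6 pairs the groups do not overlap, and for Slc25a24 to Slc25a25 the ratio lies above 0 in all controls and below 0 in all knockouts. The share over pairs of other genes was not counted.

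Enzymes and transporters that work beside the carriers were described by 5 lists. Of all genes tested, 11% rose and 58.8% fell as deposited, and after TMM scaling 30% were higher and 26% lower. In the order of the lists below, 14.3%, 6.67%, 5.88%, 0% and 5.88% of tested genes rose, and 52.4%, 60%, 70.6%, 76.9% and 47.1% fell. After TMM scaling 38.1%, 40%, 29.4%, 15.4% and 41.2% were higher, and 23.8%, 6.67%, 35.3%, 38.5% and 5.88% were lower. Among 21 tested transporters of the inner and outer membranes outside the Slc25a symbols, 3 rose and 11 fell, with a median log2 change of -0.25, and after TMM scaling 8 were higher and 5 lower, with a median of 0.12. Mpc1, a subunit of the mitochondrial pyruvate carrier, rose from 70.1 ± 4.89 to 149 ± 6.83 FPKM (log2 change 1.08, limma adjusted p = 2.3e-06, 1.45 after TMM scaling). Its partner subunit Mpc2 went from 62.0 to 55.6 FPKM and was not called under either scaling. It was chosen after its values were seen. Sfxn5, of the sideroflexins, went from 2.69 to 0.767 FPKM and Sfxn3, a serine carrier, from 42.7 to 23.6 FPKM, and both were lower under both scalings. Ucp3, an uncoupling protein, fell from 43.1 to 21.6 FPKM (log2 change -0.96, and -0.59 and called after TMM scaling).

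Of 15 tested members of the route that imports carriers into the inner membrane 1 rose and 9 fell, with a median of -0.26, and after TMM scaling 6 were higher and 1 lower, with a median of 0.09. Timm10b, a small TIM chaperone, fell from 34.3 to 18.9 FPKM (log2 change -0.83, -0.46 and called after TMM scaling). Timm10 (13.6 to 9.48 FPKM), Timm9 (11.7 to 8.18 FPKM), both chaperones of carriers in the intermembrane space, and Tomm7 (34.2 to 24.98 FPKM), a subunit of the outer membrane pore, fell as deposited and were not called after TMM scaling.

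Of 17 tested enzymes around the amino acid and organic acid carriers, 1 rose and 12 fell, with a median of -0.38, and after TMM scaling 5 were higher and 6 lower, with a median of -0.01. Bcat2, the mitochondrial transaminase of branched-chain amino acids, the substrate of Slc25a44, read 24.56, 23.46 and 29.59 FPKM in controls and 15.15, 14.56 and 14.64 FPKM in knockouts. Bckdhb, a subunit of the branched-chain ketoacid dehydrogenase, read 45.40, 43.97 and 41.81 FPKM in controls and 15.38, 20.18 and 21.47 FPKM in knockouts. No library of either gene overlapped the other group, with log2 changes of -0.76 and -1.17, and -0.40 and -0.81 after TMM scaling, all called by limma. Bckdha, the partner subunit, chosen after its values were seen, went from 37.8 to 26.7 FPKM and was not called after TMM scaling (-0.12). Aldh18a1, which starts proline synthesis, fell from 15.2 to 6.70 FPKM and Arg2, the mitochondrial arginase, from 2.50 to 0.963 FPKM, each lower under both scalings.

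Among 13 tested enzymes around the cofactor carriers, 10 fell and the other 3 were not called, with a median of -0.37. After TMM scaling 5 were lower and 2 higher, with a median of -0.02. Pank4, of the pantothenate kinase family, fell from 24.1 to 9.01 FPKM (log2 change -1.33, limma adjusted p = 1.6e-06, -0.97 after TMM scaling). Pank3, a kinase that starts coenzyme A synthesis, fell from 15.02 to 9.25 FPKM. Nadk2, the mitochondrial NAD kinase, fell from 4.93 to 2.71 FPKM, and Nnt, the nicotinamide nucleotide transhydrogenase, from 11.8 to 7.48 FPKM. These 4 genes were lower under both scalings.

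For heme, iron-sulfur and glutathione synthesis, 1 of 17 tested enzymes rose and 8 fell, with a median of -0.17, and after TMM scaling 7 were higher and 1 lower, with a median of 0.15. The gene that rose was Alas1, which joins glycine and succinyl-CoA in the first step of heme synthesis and so uses the substrate of Slc25a38. It read 91.53, 92.48 and 96.30 FPKM in controls and 381.84, 350.21 and 332.74 FPKM in knockouts. Every knockout was more than triple every control, with a log2 change of 1.91 ± 0.07 (limma adjusted p = 8.2e-08) and 2.29 after TMM scaling. Ppox, a later enzyme of the pathway, fell from 24.6 to 12.3 FPKM and was lower under both scalings (log2 changes -0.95 and -0.59). Cpox (8.23 to 5.80 FPKM), another enzyme of the pathway, and Glrx5 (32.7 to 24.6 FPKM), which hands on iron-sulfur clusters, fell as deposited and were not called after TMM scaling.

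**Figure D4:**
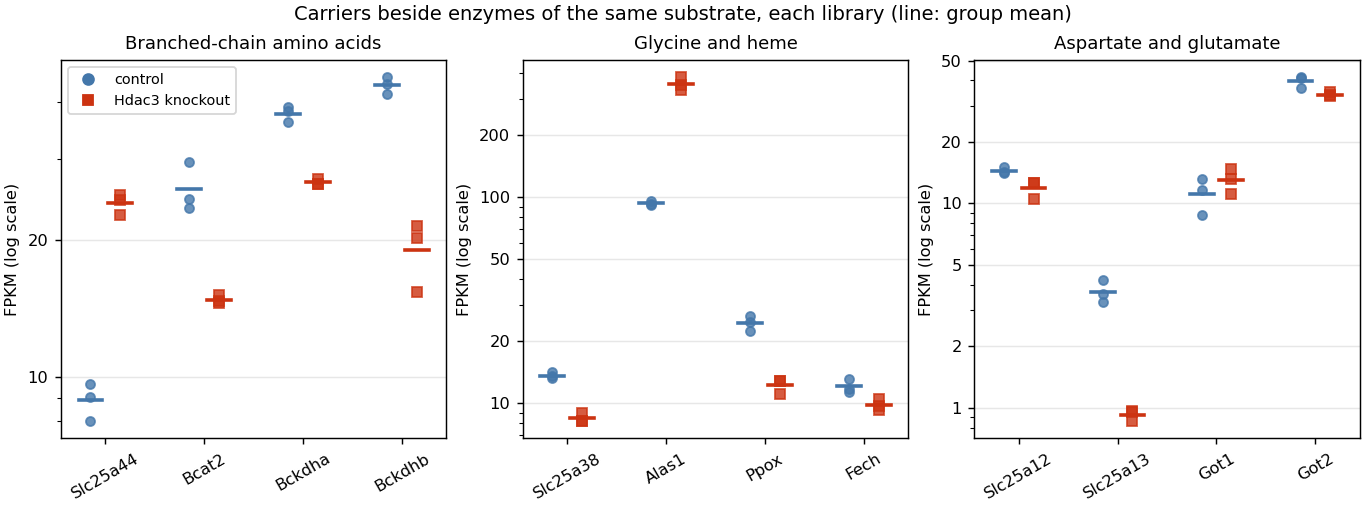
FPKM as deposited (log axes) in each library for carriers beside enzymes that use their substrate or act later in its pathway. Circles are controls, squares knockouts and lines group means. Slc25a44 and Alas1 are higher in every knockout than in any control. Bcat2, Bckdha, Bckdhb, Slc25a38, Ppox, Fech, Slc25a12, Slc25a13 and Got2 are lower in every knockout than in any control, and Got1 overlaps. Bckdha, Fech, Got1 and Got2 were chosen after their values were seen.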

How the data were processed

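Gene-level FPKM of 6 RNA-seq libraries were used, 3 per group. The authors deposited FPKM with 2 decimals, per the file headers. Total RNA was taken up in Trizol, per the labels' protocols, and Bowtie2, RSEM and the build mm10 are named in the submitters' processing notes, without versions. No source used here gives strand handling or absolute depth, so no counting interval is given. The relative depth, from the steps of low values, was 96.6% to 105% of that of control library 1.

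Symbols turned into dates were restored for 24 genes. Of the gene IDs, 18342 matched RefSeq genes on GRCm38.p6 and 50 did not, and coordinates come from there. The test was limma 3.58.1 (R 4.3.3), two-sided, run on the log2 of FPKM plus a pseudocount of 1, with genotype as its term, a trended and robust variance and Benjamini-Hochberg adjustment over all genes tested. TMM factors were computed with the published formula, trimming 30% of log ratios and 5% of mean levels at each end. The script was tested on simulated data. The members, lists and tests were chosen with earlier results of these data known. All carriers at or above 1 FPKM are named, except 1 that is counted but not reported here, with every library's value for the 2 most abundant per substrate group and for called carriers with a log2 change of at least 0.58 in size and groups apart under both scalings. In each partner list up to 4 called genes with the largest change are named, and genes outside these rules are marked. Slc25a4 is given by its range. Alternatives covered scaling, pseudocount, filter, variance model, replicate number and each library left out.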

Additional observations from a re-analysis of the deposited data

How the results depend on the processing

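Scaling changed more calls than any other alternative tried. With TMM scaling 3248 of all genes were higher and 2808 lower, and with upper-quartile scaling 2656 and 3430. For the carriers TMM gave 9 higher and 8 lower and the upper quartile 8 and 13. In the same order, higher then lower, TMM and the upper quartile gave 8 and 5 against 7 and 5 for other transport, 6 and 1 against 5 and 1 for carrier import, 5 and 6 against 4 and 7 for amino and organic acid enzymes, 2 and 5 against 2 and 6 for cofactor enzymes, and 7 and 1 against 6 and 1 for heme, iron-sulfur and glutathione enzymes. The difference of the family sum, knockout minus control, was -195.7 FPKM as deposited and 74.4 after TMM scaling. Log2 changes turned positive after TMM scaling for Slc25a5 (0.22), Slc25a22 (0.15), Slc25a45 (0.34), Slc25a12 (0.0835), Slc25a46 (0.0510), Slc25a33 (0.00772), Slc25a32 (0.16) and Slc25a15 (0.0207), and with the upper quartile for Slc25a5 (0.15), Slc25a22 (0.0826), Slc25a45 (0.27), Slc25a12 (0.0125) and Slc25a32 (0.10).

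With 1 library left out, 19 to 23 carriers were lower and 2 higher, and over all genes 5780 to 6080 were lower and 1027 to 1165 higher. Cofactor enzymes then had 0 to 1 higher and heme, iron-sulfur and glutathione enzymes 1 to 2 higher. The log2 change of Slc25a37 then ranged from -0.0303, without control library 1, to 0.167, without control library 3. That of Slc25a45 ranged from -0.103, without control library 1, to 0.0276, without control library 3. The difference of the Slc25a42 to Slc25a16 log2 ratio ranged from -0.00400 to 0.267 when 1 library was left out. With no filter on low values Slc25a15 and Slc25a40 were not called (adjusted p = 0.05 and 0.077), nor was Slc25a40 with a filter of 0.3 FPKM (0.051). The causes were not tested.

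Replicate numbers did not pair the libraries: the deviations of same-numbered libraries correlated at -0.105, -0.0556 and -0.0861. With the replicate block 20 carriers were lower and 2 higher, with Slc25a22, Slc25a15 and Slc25a40 no longer called, 1 cofactor enzyme was higher, and over all genes 6193 were lower and 1180 higher. The absolute depth is unknown, so the counting error of low carriers could not be given.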

Other observations

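The uncoupling protein Ucp2, a mitochondrial carrier whose symbol lies outside the members described, read above their sum in 5 of the 6 libraries and below it in knockout library 1. It read 1720.01, 1638.70 and 1557.96 FPKM in controls and 859.62, 986.26 and 1003.94 FPKM in knockouts, against family sums of 1059 to 1198 and 896 to 969.8 FPKM. It was lower under both scalings (log2 change -0.79, and -0.41 after TMM scaling, limma adjusted p = 2.8e-05 and 0.0022). Among the outer membrane channels Vdac2 rose from 148 to 200 FPKM under both scalings (log2 changes 0.43 and 0.80), while Vdac3 went from 49.7 to 41.7 FPKM and Vdac1 from 71.6 to 68.9 FPKM. Both turned positive after TMM scaling, Vdac1 at 0.32 and called higher (limma adjusted p = 0.0023) and Vdac3 at 0.12 and not called (0.12). The calcium uniporter Mcu rose from 1.003 to 1.86 FPKM and was called under both scalings. All these genes were chosen after their values were seen.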
